A study of Mus musculus with 3 samples.

Results

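The 32 genes described here are NRF2 targets of antioxidant defence and NADPH supply, chosen as a list by their known function, with the glutathione S-transferases left out. They were taken from 41214 gene identifiers counted in each of 3 RNA sequencing libraries of cultured mouse keratinocytes, the epithelial cells of the epidermis, and all 32 were matched by symbol. The cells were of the C57BL/6 strain, immortalised with SV40 and harvested while growing exponentially. The labels give the genotypes as a knockout of ARPC4 (ARPC4 ko), expression of Nrf2 fused to EGFP (Nrf2-EGFP) and wild type (wt), with 1 library each. ARPC4 belongs to the Arp2/3 complex, the nucleator of branched actin networks, and EGFP is a green fluorescent protein. The library title of ARPC4 ko holds the word Cre and that of Nrf2-EGFP the word High. Their meaning, the promoter behind the fusion protein, and whether each culture was a clone are not given in the labels. The names ARPC4 ko, Nrf2-EGFP and wt stand below for the libraries labelled so. The title of the series concerns Nrf2 activity after loss of the Arp2/3 complex, to which these targets bear. No spread between cultures was measured, so genotypes were described without a test or p-value.

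NRF2, encoded by Nfe2l2, is a transcription factor that is kept low by KEAP1, which marks it for degradation. Oxidants and electrophiles modify KEAP1, NRF2 then builds up, pairs with a small MAF protein and binds antioxidant response elements in the promoters and enhancers of its targets. The targets make and recycle glutathione and thioredoxin, reduce quinones and aldehydes, supply NADPH, the electron donor of these reactions, and handle heme and iron. In the epidermis this program protects keratinocytes from ultraviolet light and chemicals, and its lasting activation is known to disturb the skin barrier.

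The core of the antioxidant response element was searched because NRF2 is known to bind such elements at its targets. The search used the promoter windows of RefSeq on GRCm38.p6, which run from 250 bases before to 50 bases after a transcript's start. Windows were matched by symbol for 26 of the 32 members, 34 windows in all, and not for Gclc, Gsr, Aldh3a1, Hmox1, Fech and Abcc1. On either strand, TGACNNNGC was found for 9 of the 26 members (34.6%), against 14.0% of the 27025 genes with a window. TGAGNNNGC was found for 8 of the 26 (30.8%), against 19.85% of all. Per window, 10 of 34 member windows held TGACNNNGC, against 12.4% of 32851, and 8 of 34 held TGAGNNNGC, against 17.65%. In 4 members the match had one of the spellings TGACTCAGC (0.454% of all windows) and TGAGTCAGC (0.414% of all windows). These narrower spellings were chosen after the matches were seen, and both contain the AP-1 motif TGANTCA, so a match cannot be assigned to either factor. A match for each of 8 members is given here as read on its own strand.
Me1: TGACTCAGC
Prdx1: TGACTCAGC
Srxn1: TGAGTCAGC
Osgin1: TGAGTCAGC
Txnrd1: TGACAAAGC
Gclm: TGACGGTGC
G6pdx: TGACTGAGC
Ugdh: TGACTTAGC

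The windows of the 4 members with a narrow spelling, of Txnrd1, which was highest in Nrf2-EGFP, and of Ugdh, which was highest in ARPC4 ko, are shown in full, 5′ to 3′ on the gene's strand, with every match to either core in capitals. A match on the other strand therefore appears as its reverse complement. Osgin1 holds TGAGNNNGC but not TGACNNNGC and was chosen after its site and values were seen. The windows shown for Txnrd1 and Osgin1 lie inside the annotated genes, which start at 82833951 and 119434124. They belong to internal transcript starts, and which start these cells use was not measured.
Srxn1 (chr2:152105274-152105573, plus strand): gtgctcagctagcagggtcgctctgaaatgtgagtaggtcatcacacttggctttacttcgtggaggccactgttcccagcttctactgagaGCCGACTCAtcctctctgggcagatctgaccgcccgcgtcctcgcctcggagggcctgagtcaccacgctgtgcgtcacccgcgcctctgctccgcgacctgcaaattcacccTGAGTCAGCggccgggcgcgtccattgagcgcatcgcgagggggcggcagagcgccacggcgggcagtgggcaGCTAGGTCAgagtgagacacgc
Prdx1 (chr4:116685349-116685648, plus strand): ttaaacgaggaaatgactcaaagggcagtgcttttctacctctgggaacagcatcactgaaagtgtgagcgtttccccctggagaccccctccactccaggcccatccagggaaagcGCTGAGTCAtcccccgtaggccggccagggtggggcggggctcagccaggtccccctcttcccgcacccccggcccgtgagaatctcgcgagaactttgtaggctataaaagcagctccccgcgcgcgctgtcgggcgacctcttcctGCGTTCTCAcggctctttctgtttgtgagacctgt
Me1 (chr9:86695865-86696164, minus strand): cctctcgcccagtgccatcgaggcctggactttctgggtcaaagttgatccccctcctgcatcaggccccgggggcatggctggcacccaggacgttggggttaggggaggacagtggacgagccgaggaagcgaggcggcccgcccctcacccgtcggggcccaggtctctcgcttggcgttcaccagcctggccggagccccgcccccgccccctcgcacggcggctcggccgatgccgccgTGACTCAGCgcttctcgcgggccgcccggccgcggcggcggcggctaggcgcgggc
Osgin1 (chr8:119436897-119437196, plus strand): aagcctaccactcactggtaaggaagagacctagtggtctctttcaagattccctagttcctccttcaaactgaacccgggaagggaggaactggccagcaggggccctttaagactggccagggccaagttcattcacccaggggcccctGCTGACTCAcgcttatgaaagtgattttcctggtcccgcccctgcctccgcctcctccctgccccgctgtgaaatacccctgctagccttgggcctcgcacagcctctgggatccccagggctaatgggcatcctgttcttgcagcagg
Txnrd1 (chr10:82858956-82859255, plus strand): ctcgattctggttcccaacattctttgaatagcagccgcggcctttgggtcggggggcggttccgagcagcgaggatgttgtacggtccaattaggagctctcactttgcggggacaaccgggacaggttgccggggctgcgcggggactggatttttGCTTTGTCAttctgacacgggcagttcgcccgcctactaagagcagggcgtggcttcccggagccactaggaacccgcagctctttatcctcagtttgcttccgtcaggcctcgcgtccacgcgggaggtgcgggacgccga
Ugdh (chr5:65435793-65436092, minus strand): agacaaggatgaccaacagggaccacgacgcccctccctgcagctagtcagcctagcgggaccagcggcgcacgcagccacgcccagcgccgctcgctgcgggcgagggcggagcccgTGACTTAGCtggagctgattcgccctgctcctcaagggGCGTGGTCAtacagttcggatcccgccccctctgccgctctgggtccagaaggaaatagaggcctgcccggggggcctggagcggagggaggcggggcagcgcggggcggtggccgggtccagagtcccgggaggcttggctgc

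A match is a description of the letters and not a binding site. NRF2 elements can also lie outside these windows, and no binding was measured in these data. Among the 4 with a narrow spelling, Osgin1 was higher and Prdx1 lower in both other libraries than in wt.

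**Figure D1:**
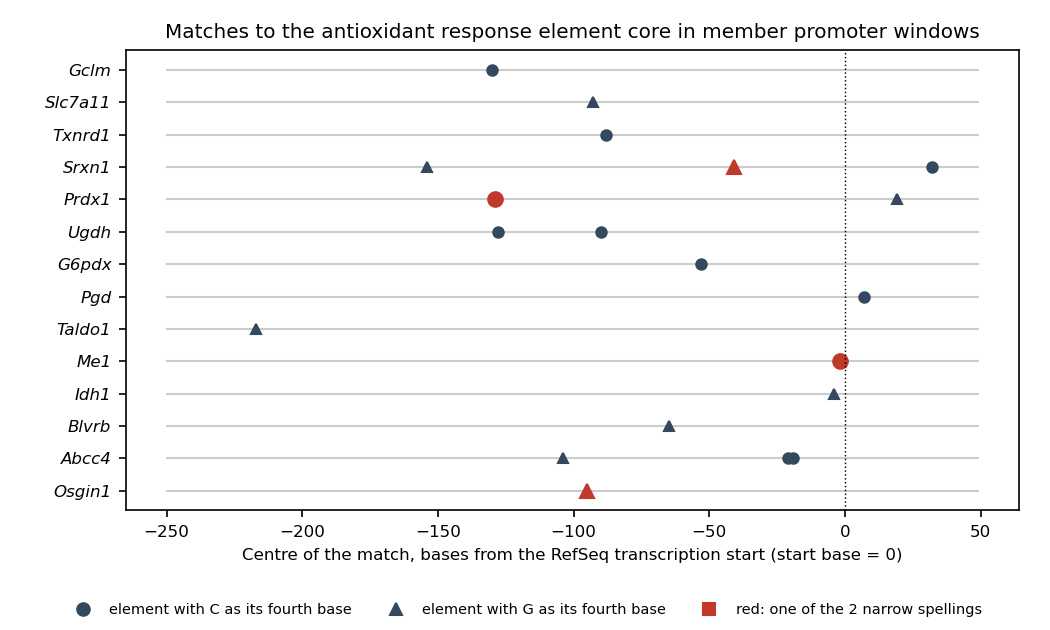
Positions of matches to the antioxidant response element core in the promoter windows of the 14 members with a match. The x axis gives the centre of each match in bases from the RefSeq transcription start, circles and triangles stand for a C or a G as the fourth base of the core, and red marks the narrower spellings in Srxn1, Prdx1, Me1 and Osgin1. For Abcc4 the matches of 2 alternative windows share a line.

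The libraries held 23033863 (ARPC4 ko), 25723959 (Nrf2-EGFP) and 22924294 (wt) gene counts, and 11865 genes had at least 1 CPM (counts per 1000000 gene counts of the library, after TMM scaling) in at least 1 library. All 32 members passed this filter, Aldh3a1 through the ARPC4 ko and Nrf2-EGFP libraries. Arpc4 had 61.0 CPM in ARPC4 ko, 98.4 CPM in Nrf2-EGFP and 94.2 CPM in wt, so its counts were 1.54-fold lower (1.44 to 1.65) in ARPC4 ko than in wt. Counts per gene do not show which part of the transcript remains, so they cannot tell whether the knockout was complete. Nfe2l2 had 179 CPM in ARPC4 ko, 166 CPM in Nrf2-EGFP and 225 CPM in wt. The counts of Nfe2l2 thus go against the label Nrf2-EGFP if they include the fusion construct, which the sources used here do not say. The directions given for the library labelled Nrf2-EGFP rest on its label alone. All 10 keratinocyte markers were measured in each library. Their summed level was 15670.2 CPM in ARPC4 ko, 20424 CPM in Nrf2-EGFP and 25553 CPM in wt. Most of the difference lay in Krt5 and Krt14, and the markers did not fall together. Krt5 and Krt14 passed the 2-fold rule given below as lower in ARPC4 ko, and none of the 10 passed it in Nrf2-EGFP. In ARPC4 ko, 3 of the 10 had a log2 fold above 0 against wt (Trp63, Col17a1 and Epcam). In Nrf2-EGFP 5 had, the same genes with Itga6 and Itgb4. Of markers of other cell types, 2 of 10 fibroblast, 2 of 10 immune, 1 of 7 melanocyte and 3 of 7 endothelial genes passed the filter. Col1a2, Col3a1, Lum, Dcn, Cd3e, Adgre1, Tyr and Dct had 0 counts in every library, which allows up to 3 counts. Among those that passed, Vim had 2.80 CPM in ARPC4 ko, 0.121 CPM in Nrf2-EGFP and 0.534 CPM in wt. Pdgfra had 1.11 CPM in ARPC4 ko, 1.85 CPM in Nrf2-EGFP and 0.978 CPM in wt. Cd14 had 4.40 CPM in ARPC4 ko, 4.91 CPM in Nrf2-EGFP and 1.87 CPM in wt. Cd68 had 6.17 CPM in ARPC4 ko, 4.71 CPM in Nrf2-EGFP and 5.51 CPM in wt. Mitf had 4.44 CPM in ARPC4 ko, 1.57 CPM in Nrf2-EGFP and 2.49 CPM in wt. The sums were 6.62 CPM in ARPC4 ko, 7.41 CPM in Nrf2-EGFP and 13.6 CPM in wt for suprabasal, 4.36 CPM in ARPC4 ko, 2.66 CPM in Nrf2-EGFP and 1.60 CPM in wt for fibroblast, 11.6 CPM in ARPC4 ko, 10.6 CPM in Nrf2-EGFP and 7.74 CPM in wt for immune and 5.35 CPM in ARPC4 ko, 2.17 CPM in Nrf2-EGFP and 3.47 CPM in wt for melanocyte markers. The endothelial sum was 54.2 CPM in ARPC4 ko, 63.2 CPM in Nrf2-EGFP and 27.7 CPM in wt, nearly all of it Flt1, while Cdh5 and Vwf had at most 1 count. The part of these markers in the values of the NRF2 targets was not tested. Fewer cells of a type and less RNA per cell cannot be told apart in such bulk samples.

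As a set the NRF2 targets were slightly lower in ARPC4 ko than in wt, near wt in Nrf2-EGFP, and lower in ARPC4 ko than in Nrf2-EGFP. Together the 32 genes took 0.442% of the gene counts in ARPC4 ko, 0.488% in Nrf2-EGFP and 0.522% in wt. Such a share follows the most abundant members, among them Prdx1, Fth1, Ftl1 and Txn1. ARPC4 ko was the lowest of the 3 libraries for 23 of 32 members (71.9%), against 34.9% of all genes compared. Nrf2-EGFP was the highest for 15 (46.9%, against 30.6% of all) and wt for 14 (43.8%, against 38.9%). Scaling by total counts instead of TMM, chosen for this order after the data were seen, left 17 members lowest in ARPC4 ko (18.9% of all genes) and 11 highest in Nrf2-EGFP (19.6%). Differences were mostly small. In these comparisons passing the 2-fold rule meant a log2 fold (the log2 ratio of CPM + 0.5) of 1 or more in size, together with a ratio of scaled counts whose exact 95% interval excluded 1. Intervals cover counting error and not the spread between cultures.

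Against wt, ARPC4 ko had 1 member past the rule as higher, Aldh3a1, and 2 as lower, Nqo1 and Adh7. Of all genes compared, 4.70% were past it upwards, 2.06% downwards and 6.76% either way. At 1.5-fold, 2 members were higher (10.8% of all genes) and 4 lower (6.24%). The median log2 fold of the members was -0.21 (range -2.79 to 2.13), and that of all genes was -0.01. Total-count scaling shifts the median of all genes by 0.10 and gives a median of -0.11 for the members, which stay lower relative to all genes, while Slc7a11, Cbr1, Me1, Blvrb, Fech and Abcc4 change sign. The log2 fold was above 0 for 7 of 32 members, against 48.5% of all genes, and for 13 under total-count scaling. The interval lay below 1 for 18 members (34.6% of all genes) and above 1 for 7 (31.6% of all).

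Against wt, Nrf2-EGFP had 1 member past the rule as higher, again Aldh3a1, and 1 as lower, Adh7. Of all genes compared, 3.57% were past it upwards, 2.05% downwards and 5.61% either way. At 1.5-fold, 3 members were higher (8.61% of all genes) and 2 lower (5.72%). The median log2 fold of the members was 0.06 (range -2.51 to 1.67) and that of all genes 0.00. The log2 fold was above 0 for 18 of 32 members, against 50.5% of all genes, and G6pdx and Fech change sign under total-count scaling. The interval lay above 1 for 16 members (32.1% of all genes) and below 1 for 9 (30.8% of all). The comparisons of ARPC4 ko and of Nrf2-EGFP with wt share the wt library.

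Between ARPC4 ko and Nrf2-EGFP no member passed the 2-fold rule, against 2.01% of all genes as higher in ARPC4 ko, 0.961% as lower and 2.98% either way. By its ratio alone Cbr3, with few counts, was 2.15-fold lower (1.32 to 3.60) in ARPC4 ko than in Nrf2-EGFP. It missed the rule because its log2 fold of CPM + 0.5 was -0.83. At 1.5-fold, 0 members were higher (5.85% of all genes) and 3 lower (3.38%). The median log2 fold of the members was -0.23 (range -0.83 to 0.58), against -0.02 for all genes, and it was above 0 for 5 of 32, against 47.1% of all. Total-count scaling shifts the median of all genes by 0.12 and gives a median of -0.10 for the members, with 10 above 0, as Gsr, Prdx1, Akr1b8, Taldo1 and Fech change sign. The interval lay below 1 for 23 members (31.8% of all genes) and above 1 for 3 (23.6% of all). Counting intervals are narrower for genes with many counts, and the members had more than most. Their median level was 67.6 CPM in ARPC4 ko, 88.0 CPM in Nrf2-EGFP and 97.6 CPM in wt, while that of all genes compared was 35.0 CPM in ARPC4 ko, 35.5 CPM in Nrf2-EGFP and 34.6 CPM in wt.

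**Figure D2:**
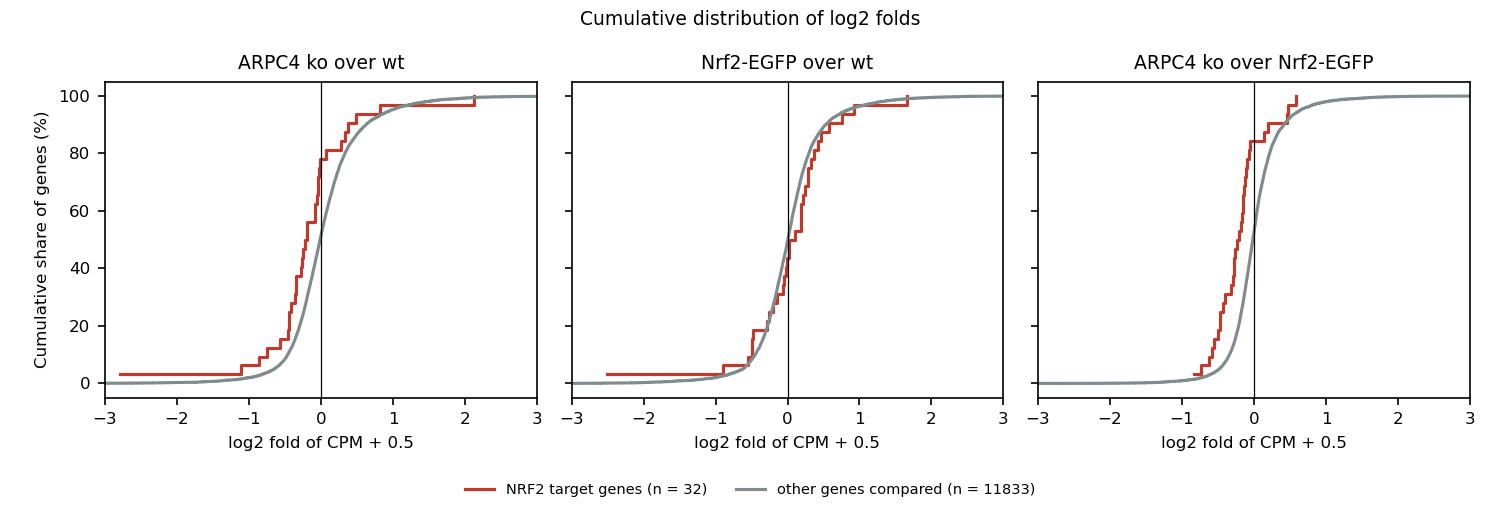
Cumulative share of genes (y axis, percent) against the log2 fold of CPM + 0.5 (x axis) for ARPC4 ko over wt, Nrf2-EGFP over wt and ARPC4 ko over Nrf2-EGFP. The red curve of the 32 NRF2 targets lies left of the grey curve of the other genes compared over most of its course for ARPC4 ko over wt (median -0.21) and ARPC4 ko over Nrf2-EGFP (median -0.23), and close to it for Nrf2-EGFP over wt (median 0.06).

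Of the genes of glutathione supply and use, Gclc differed most between ARPC4 ko and Nrf2-EGFP, and Gpx2 between ARPC4 ko and wt. Gclc is the catalytic subunit of glutamate-cysteine ligase, which catalyses the rate-limiting step of glutathione synthesis. Gclc (chromosome 9, 77754535 to 77794485 in mm10) had 65.8 CPM in ARPC4 ko, 110.0 CPM in Nrf2-EGFP and 90.3 CPM in wt. It was 1.37-fold lower (1.28 to 1.47) in ARPC4 ko than in wt and 1.22-fold higher (1.15 to 1.29) in Nrf2-EGFP than in wt, and 1.67-fold lower (1.57 to 1.78) in ARPC4 ko than in Nrf2-EGFP. Gclm, the modifier subunit of the same ligase, had 31.1 CPM in ARPC4 ko, 37.9 CPM in Nrf2-EGFP and 39.7 CPM in wt. ARPC4 ko was thus the lowest library for both subunits, while for Gclm the order of Nrf2-EGFP and wt was within counting error. Gclm was 1.28-fold lower (1.16 to 1.41) in ARPC4 ko than in wt, and its ratio in Nrf2-EGFP, 0.954 (0.869 to 1.05), had an interval that includes 1. Slc7a11, the cystine importer of the xCT exchanger, had 107 CPM in ARPC4 ko, 119.8 CPM in Nrf2-EGFP and 112 CPM in wt. These levels were close, and the ratio of ARPC4 ko over wt was 0.960 (0.909 to 1.01).

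Gsr, the reductase that returns oxidised glutathione to its reduced form, was higher in both other libraries than in wt. It had 136 CPM in ARPC4 ko, 148 CPM in Nrf2-EGFP and 108 CPM in wt, or 1.26-fold higher (1.20 to 1.33) in ARPC4 ko and 1.38-fold higher (1.31 to 1.45) in Nrf2-EGFP than in wt. Gpx2, an epithelial glutathione peroxidase that carries selenocysteine, was at the other end, with 69.1 CPM in ARPC4 ko, 86.0 CPM in Nrf2-EGFP and 126 CPM in wt. It was 1.82-fold lower (1.72 to 1.94) in ARPC4 ko and 1.46-fold lower (1.38 to 1.55) in Nrf2-EGFP than in wt. None of the 5 glutathione members passed the 2-fold rule in any pair of libraries, and their median log2 fold was -0.35 in ARPC4 ko and 0.10 in Nrf2-EGFP against wt.

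All 5 thioredoxin and peroxide genes were lower in ARPC4 ko than in wt, by 1.14-fold to 1.48-fold, each with an interval below 1, and none passed the 2-fold rule. Txnrd1, the cytosolic thioredoxin reductase, had 262 CPM in ARPC4 ko, 364 CPM in Nrf2-EGFP and 313 CPM in wt. Srxn1, sulfiredoxin, which repairs over-oxidised peroxiredoxins, had 36.1 CPM in ARPC4 ko, 53.2 CPM in Nrf2-EGFP and 43.5 CPM in wt. In both genes Nrf2-EGFP was the highest library and ARPC4 ko the lowest. Txnrd1 was 1.19-fold lower (1.15 to 1.24) in ARPC4 ko and 1.16-fold higher (1.13 to 1.20) in Nrf2-EGFP than in wt, and 1.39-fold lower (1.35 to 1.44) in ARPC4 ko than in Nrf2-EGFP. Srxn1 was 1.21-fold lower (1.10 to 1.32) in ARPC4 ko and 1.22-fold higher (1.12 to 1.33) in Nrf2-EGFP than in wt, and 1.47-fold lower (1.35 to 1.60) in ARPC4 ko than in Nrf2-EGFP. The substrates of these enzymes had wt on top. Prdx1, the main cytosolic peroxiredoxin, had 714 CPM in ARPC4 ko, 749 CPM in Nrf2-EGFP and 1056 CPM in wt. It was 1.48-fold lower (1.45 to 1.51) in ARPC4 ko and 1.41-fold lower (1.38 to 1.44) in Nrf2-EGFP than in wt. Txn1, thioredoxin itself, had 335 CPM in ARPC4 ko, 370.1 CPM in Nrf2-EGFP and 426 CPM in wt. It was 1.27-fold lower (1.24 to 1.31) in ARPC4 ko and 1.15-fold lower (1.12 to 1.19) in Nrf2-EGFP than in wt. Cat, catalase, the peroxisomal enzyme that breaks down hydrogen peroxide, varied least of the 5, with 91.7 CPM in ARPC4 ko, 102 CPM in Nrf2-EGFP and 105 CPM in wt.

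The enzymes that reduce or oxidise quinones, carbonyls and aldehydes held every member that passed the 2-fold rule. Nqo1 (chromosome 8, 107388225 to 107403206), a quinone reductase widely read as a measure of NRF2 activity, had 11.1 CPM in ARPC4 ko, 12.9 CPM in Nrf2-EGFP and 24.5 CPM in wt. Both other libraries lay below wt. Nqo1 was 2.21-fold lower (1.91 to 2.57) in ARPC4 ko, past the rule, and 1.89-fold lower (1.65 to 2.18) in Nrf2-EGFP, not past it. Between ARPC4 ko and Nrf2-EGFP the ratio was 0.857 (0.726 to 1.01). Adh7 (chromosome 3, 138217760 to 138233382), an alcohol dehydrogenase of epithelia that oxidises retinol, had 65 counts or 2.67 CPM (exact Poisson interval 2.06 to 3.41) in ARPC4 ko, 83 counts or 3.34 CPM (2.66 to 4.14) in Nrf2-EGFP and 482 counts or 21.4 CPM (19.6 to 23.4) in wt. It fell past the rule in both, being 8.02-fold lower (6.18 to 10.6) in ARPC4 ko and 6.42-fold lower (5.07 to 8.20) in Nrf2-EGFP than in wt. An antisense gene, 0610031O16Rik, overlaps an exon of Adh7 and shares 1.26% of its 65-base stretches, and reads of the pair cannot be told apart unless strand was used in counting. Aldh3a1 (chromosome 11, 61207537 to 61218421), an aldehyde dehydrogenase abundant in the corneal epithelium, had 60 counts or 2.47 CPM (1.88 to 3.18) in ARPC4 ko, 41 counts or 1.65 CPM (1.18 to 2.24) in Nrf2-EGFP and 4 counts or 0.178 CPM (0.0485 to 0.455) in wt. It was 13.9-fold higher (5.15 to 52.6) in ARPC4 ko and 9.28-fold higher (3.36 to 35.7) in Nrf2-EGFP than in wt, and its level stayed low in every library. With a pseudocount of 2 CPM Aldh3a1 no longer passed in Nrf2-EGFP, where its log2 fold was then 0.74.

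Ephx1, the microsomal epoxide hydrolase, had 49.9 CPM in ARPC4 ko, 33.1 CPM in Nrf2-EGFP and 27.9 CPM in wt. ARPC4 ko stood above the other libraries, 1.79-fold higher (1.62 to 1.97) than wt and 1.51-fold higher (1.38 to 1.65) than Nrf2-EGFP, without passing the rule. Ugdh, which makes UDP-glucuronate for conjugation, had 66.1 CPM in ARPC4 ko, 57.8 CPM in Nrf2-EGFP and 50.6 CPM in wt, the same order of libraries, and was 1.31-fold higher (1.21 to 1.41) in ARPC4 ko and 1.14-fold higher (1.06 to 1.23) in Nrf2-EGFP than in wt. Akr1b8, an aldo-keto reductase, had 41.5 CPM in ARPC4 ko, 43.1 CPM in Nrf2-EGFP and 34.2 CPM in wt, with ARPC4 ko and Nrf2-EGFP near each other (ratio 0.965 (0.884 to 1.05)) and both above wt. The neighbouring carbonyl reductase genes Cbr1 and Cbr3 on chromosome 16 went apart in Nrf2-EGFP. Cbr1 had 12.9 CPM in ARPC4 ko, 9.22 CPM in Nrf2-EGFP and 13.1 CPM in wt, and Cbr3, with few counts, had 1.03 CPM in ARPC4 ko, 2.21 CPM in Nrf2-EGFP and 1.11 CPM in wt. In Nrf2-EGFP, Cbr1 was 1.42-fold lower (1.19 to 1.69) and Cbr3 1.99-fold higher (1.22 to 3.33) than in wt, and neither passed the rule. In ARPC4 ko the intervals of both ratios to wt included 1. Cbr3 had 25 counts in ARPC4 ko and 55 in Nrf2-EGFP, a ratio of 0.465 (0.277 to 0.758) between them.

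The NADPH genes showed small differences, and all 6 had a log2 fold under 0 in ARPC4 ko against wt (median -0.32), except that Me1 changes sign under total-count scaling. The interval excluded 1 for the other 5. Pgd, which releases NADPH in the oxidative pentose phosphate pathway, varied most. It had 228 CPM in ARPC4 ko, 351 CPM in Nrf2-EGFP and 309 CPM in wt, and was 1.36-fold lower (1.31 to 1.41) in ARPC4 ko and 1.13-fold higher (1.10 to 1.17) in Nrf2-EGFP than in wt, and 1.54-fold lower (1.49 to 1.59) in ARPC4 ko than in Nrf2-EGFP. G6pdx, the first enzyme of that pathway, had 164 CPM in ARPC4 ko, 201 CPM in Nrf2-EGFP and 199 CPM in wt, with ARPC4 ko the lowest and the other libraries nearly level. Tkt, a transketolase of its non-oxidative branch, had 260.4 CPM in ARPC4 ko, 296 CPM in Nrf2-EGFP and 299 CPM in wt. Taldo1, the transaldolase of the same branch, had 132 CPM in ARPC4 ko, 142 CPM in Nrf2-EGFP and 169.8 CPM in wt. Idh1, the cytosolic isocitrate dehydrogenase, had 80.3 CPM in ARPC4 ko, 90.1 CPM in Nrf2-EGFP and 109.6 CPM in wt. For both, wt was the highest library. Me1, the cytosolic malic enzyme, had 108 CPM in ARPC4 ko, 128 CPM in Nrf2-EGFP and 112 CPM in wt. In Nrf2-EGFP against wt the median of the 6 was 0.00, with 2 intervals above 1 (Pgd and Me1) and 2 below it (Taldo1 and Idh1).

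Among the heme and iron genes, Hmox1 followed the order seen for Gclc. Hmox1 (chromosome 8, 75093621 to 75100589), the inducible heme oxygenase, which opens the heme ring and frees iron, had 36.9 CPM in ARPC4 ko, 55.6 CPM in Nrf2-EGFP and 43.1 CPM in wt. It was 1.17-fold lower (1.07 to 1.28) in ARPC4 ko and 1.29-fold higher (1.19 to 1.40) in Nrf2-EGFP than in wt, and 1.51-fold lower (1.38 to 1.64) in ARPC4 ko than in Nrf2-EGFP. The ferritin subunits, which store iron, differed from each other in Nrf2-EGFP. Ftl1, the light chain, had 328 CPM in ARPC4 ko, 394 CPM in Nrf2-EGFP and 553 CPM in wt, and was 1.69-fold lower (1.64 to 1.74) in ARPC4 ko and 1.41-fold lower (1.37 to 1.44) in Nrf2-EGFP than in wt. Fth1, the heavy chain, had 417 CPM in ARPC4 ko, 552 CPM in Nrf2-EGFP and 556 CPM in wt, and was 1.33-fold lower (1.30 to 1.37) in ARPC4 ko, whereas its ratio in Nrf2-EGFP over wt was 0.994 (0.970 to 1.02). Fech, ferrochelatase, which inserts iron into heme, had 46.3 CPM in ARPC4 ko, 49.4 CPM in Nrf2-EGFP and 48.9 CPM in wt, and Blvrb, a biliverdin reductase, had 4.85 CPM in ARPC4 ko, 4.39 CPM in Nrf2-EGFP and 4.89 CPM in wt. For Fech and Blvrb the intervals of all 3 ratios included 1.

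The efflux pumps and Osgin1 were highest in Nrf2-EGFP. Abcc1, which exports glutathione conjugates, had 294 CPM in ARPC4 ko, 415 CPM in Nrf2-EGFP and 279 CPM in wt, 1.49-fold higher (1.44 to 1.53) in Nrf2-EGFP than in wt and 1.41-fold lower (1.37 to 1.45) in ARPC4 ko than in Nrf2-EGFP. Abcc4, a related exporter of organic anions and cyclic nucleotides, had 19.8 CPM in ARPC4 ko, 27.6 CPM in Nrf2-EGFP and 20.5 CPM in wt, 1.35-fold higher (1.20 to 1.52) in Nrf2-EGFP than in wt. In ARPC4 ko both pumps were close to wt, with ratios of 1.05 (1.02 to 1.09) for Abcc1 and 0.967 (0.849 to 1.10) for Abcc4. Osgin1 (chromosome 8, 119434124 to 119446256), an oxidative-stress-induced growth inhibitor, had 33.6 CPM in ARPC4 ko, 45.5 CPM in Nrf2-EGFP and 23.8 CPM in wt. It was 1.91-fold higher (1.72 to 2.12) in Nrf2-EGFP, with a log2 fold of 0.92 just under the rule, and 1.41-fold higher (1.27 to 1.58) in ARPC4 ko than in wt. Its window printed above holds the TGAGTCAGC spelling.

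**Figure D3:**
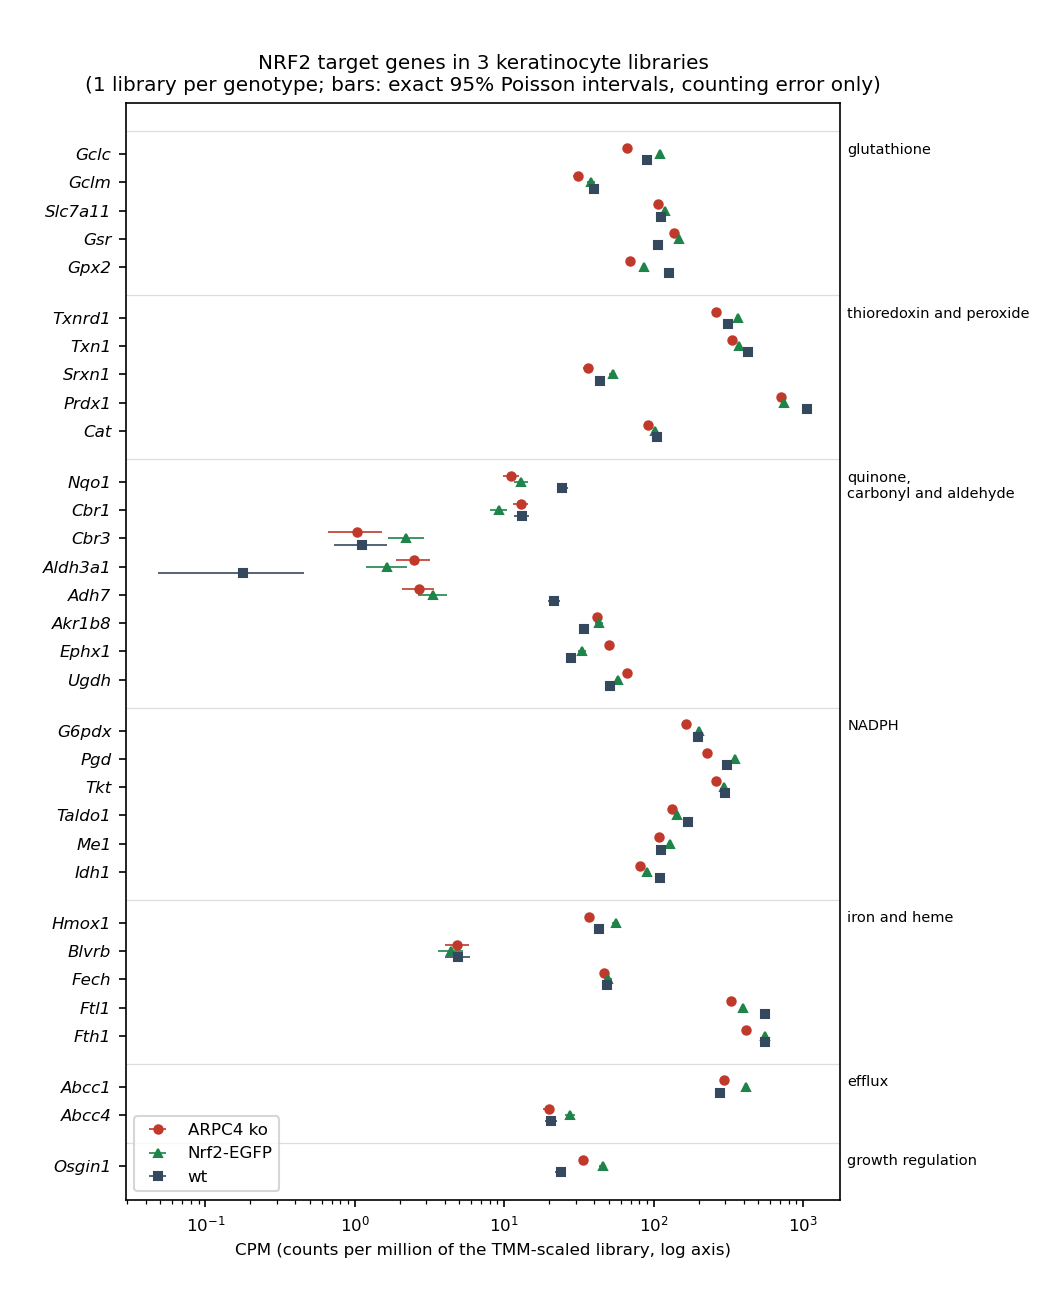
Levels of the 32 NRF2 target genes in CPM (x axis, log scale) in ARPC4 ko, Nrf2-EGFP and wt, 1 library each, grouped by role, with exact 95% Poisson intervals that cover counting error. Most members differ little between libraries, while Adh7 lies at 2.67 CPM in ARPC4 ko and 3.34 CPM in Nrf2-EGFP against 21.4 CPM in wt, and Aldh3a1 at 2.47 CPM in ARPC4 ko and 1.65 CPM in Nrf2-EGFP against 0.178 CPM in wt.

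**Figure D4:**
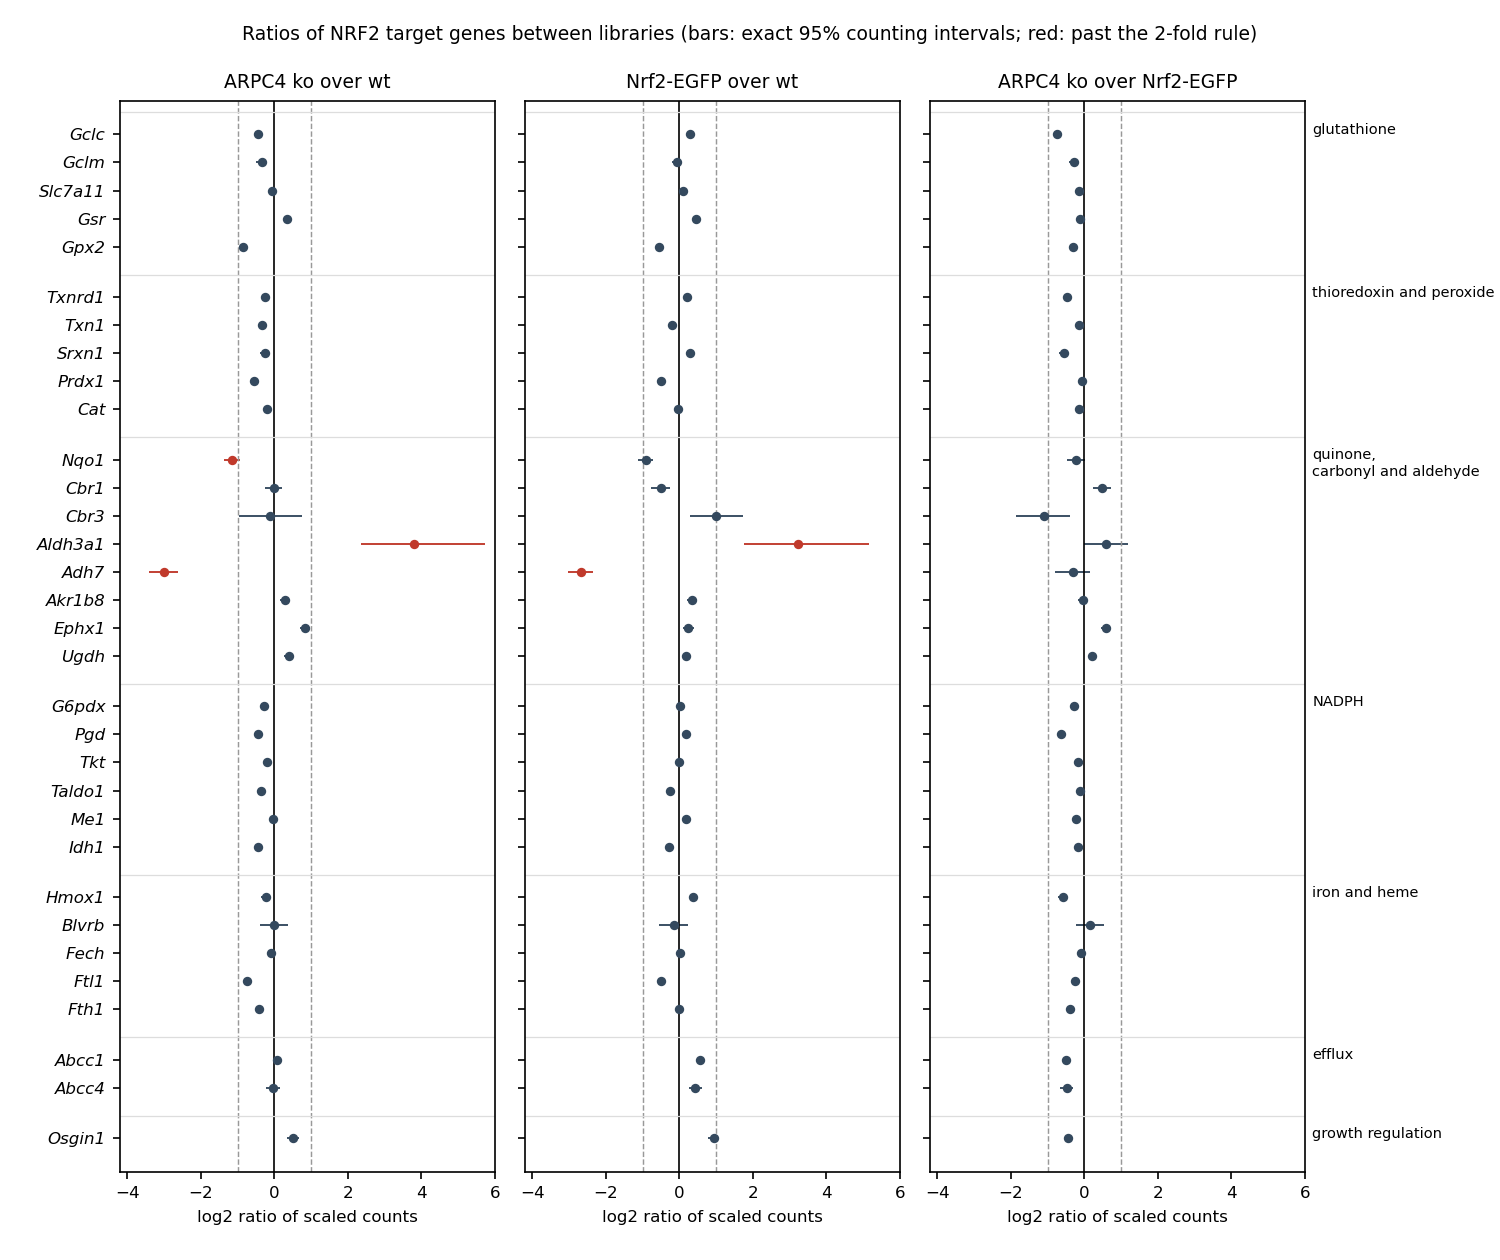
Log2 ratio of scaled counts (x axis, no pseudocount) of each member for ARPC4 ko over wt, Nrf2-EGFP over wt and ARPC4 ko over Nrf2-EGFP, with exact 95% counting intervals and dashed lines at 2-fold. Red points passed the 2-fold rule, which were Nqo1, Aldh3a1 and Adh7 in the first panel, Aldh3a1 and Adh7 in the second and none in the third. Cbr3 lies past a dashed line in the third panel but is not red, because the rule used CPM + 0.5.

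Levels of different members were compared per kilobase of merged exon (RPKM, here CPM per kilobase). The merged length counts every annotated exon, whether or not these cells use it, so the order of members depends on the annotation. Ftl1 and Fth1, for example, had 553 CPM and 556 CPM in wt but merged lengths of 1340 and 3469 bases. Txn1, Ftl1 and Prdx1 had the highest levels in each library. Txn1 had 319 RPKM in ARPC4 ko, 352 RPKM in Nrf2-EGFP and 406 RPKM in wt, and Ftl1 had 245 RPKM in ARPC4 ko, 294 RPKM in Nrf2-EGFP and 413 RPKM in wt. Prdx1 had 235 RPKM in ARPC4 ko, 246 RPKM in Nrf2-EGFP and 347 RPKM in wt. Fth1 came next in all 3 libraries, with 120.3 RPKM in ARPC4 ko, 159 RPKM in Nrf2-EGFP and 160.2 RPKM in wt, followed by Taldo1 and G6pdx. Nqo1 ranked 24 of 32 in ARPC4 ko, 24 in Nrf2-EGFP and 19 in wt, with 7.13 RPKM in ARPC4 ko, 8.32 RPKM in Nrf2-EGFP and 15.7 RPKM in wt. Adh7 ranked 32 in ARPC4 ko, 31 in Nrf2-EGFP and 26 in wt, and Aldh3a1 ranked 30 in ARPC4 ko and 32 in both Nrf2-EGFP and wt. In ARPC4 ko Aldh3a1, at 1.27 RPKM, was above Adh7, at 0.706 RPKM, whereas in wt Adh7 had 5.66 RPKM and Aldh3a1 0.0916 RPKM. Summed by role, the quinone, carbonyl and aldehyde genes held 188 CPM in ARPC4 ko, 163 CPM in Nrf2-EGFP and 173 CPM in wt, a role sum that was highest in ARPC4 ko. The thioredoxin and peroxide genes held 1439 CPM in ARPC4 ko, 1639 CPM in Nrf2-EGFP and 1944 CPM in wt, and the NADPH genes held 973 CPM in ARPC4 ko, 1208 CPM in Nrf2-EGFP and 1199 CPM in wt. The iron and heme genes held 833 CPM in ARPC4 ko, 1055 CPM in Nrf2-EGFP and 1206 CPM in wt, and the glutathione genes held 409 CPM in ARPC4 ko, 502 CPM in Nrf2-EGFP and 475 CPM in wt. The efflux pumps held 314 CPM in ARPC4 ko, 443 CPM in Nrf2-EGFP and 299.7 CPM in wt. Such sums follow their most abundant genes, as Ftl1 and Fth1 for iron and heme and Prdx1 for thioredoxin and peroxide. Within these roles, Hmox1, Txnrd1 and Srxn1 were instead highest in Nrf2-EGFP.

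Shared sequence limits some members more than others. Of the 65-base stretches of its annotated transcripts, the read length of these libraries, Ftl1 shared 54.15% with other transcripts, mostly its pseudogenes, Me1 22.8%, G6pdx 13.0% (with Ikbkg, which overlaps it on the opposite strand, and G6pd2), Prdx1 5.42% and Gpx2 4.10%. The other 27 members shared under 4%, and 14 of the 32 shared none, among them Gclc, Gsr, Txnrd1, Srxn1, Nqo1, Hmox1 and Osgin1. Exons of Me1, Gclm and Ftl1 are also overlapped by genes on the other strand, A330041J22Rik, Gm17494 and Gm10252. On the same strand, exons of Ephx1, Ugdh and Gclm are overlapped by Gm36961, Gm43552 and Gm6061, which the strand of a read cannot separate. Small RNA genes lie on the same strand in exons of Ftl1 and Tkt. Reads without a unique alignment were totalled apart from the genes, at 6.81% of all counts in ARPC4 ko, 7.13% in Nrf2-EGFP and 7.64% in wt. Ambiguous reads were another 0.887% in ARPC4 ko, 0.871% in Nrf2-EGFP and 0.894% in wt. Reads from shared stretches may thus have been left out, so levels of Ftl1, Me1 and G6pdx are uncertain and may be too low. Whether the loss for these genes differed between libraries was not tested.

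Other genes of the same pathways, in 7 further lists with 143 gene names, were mostly within 2-fold as well. Hrd1 and Wdr23 in these lists are second names of Syvn1 and Dcaf11. Of 115 measured, 1 passed as higher and 6 as lower in ARPC4 ko against wt, beside 4.70% higher and 2.06% lower among all genes. In Nrf2-EGFP against wt, 1 passed as higher and 1 as lower, beside 3.57% and 2.05% of all genes. Their median log2 fold against wt was -0.06 in ARPC4 ko (-0.01 for all genes) and -0.09 in Nrf2-EGFP (0.00 for all genes). Among 16 other glutathione genes Chac1, which degrades glutathione, was lower, with 43.0 CPM in ARPC4 ko, 55.7 CPM in Nrf2-EGFP and 91.6 CPM in wt, and was 2.13-fold lower (1.98 to 2.30) in ARPC4 ko. Among 20 other thioredoxin, peroxiredoxin and superoxide genes Sesn2, a stress-induced sestrin, had 37.1 CPM in ARPC4 ko, 44.9 CPM in Nrf2-EGFP and 78.1 CPM in wt and was 2.10-fold lower (1.94 to 2.28) in ARPC4 ko. Of 18 other carbonyl enzymes, Aldh2, the mitochondrial aldehyde dehydrogenase, was higher in ARPC4 ko, with 54.0 CPM in ARPC4 ko, 12.3 CPM in Nrf2-EGFP and 13.2 CPM in wt. It was 4.09-fold higher (3.60 to 4.65) than in wt and 4.38-fold higher (3.87 to 4.98) than in Nrf2-EGFP. Cyb5r1, a cytochrome b5 reductase, had 83.0 CPM in ARPC4 ko, 91.3 CPM in Nrf2-EGFP and 175 CPM in wt and was 2.11-fold lower (2.0 to 2.23) in ARPC4 ko.

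Of 17 other NADPH genes, the folate enzyme Aldh1l2, which makes NADPH in mitochondria, passed as lower in both comparisons with wt. It had 70.9 CPM in ARPC4 ko, 69.6 CPM in Nrf2-EGFP and 204 CPM in wt, and was 2.87-fold lower (2.72 to 3.04) in ARPC4 ko and 2.93-fold lower (2.77 to 3.10) in Nrf2-EGFP than in wt. Its cytosolic relative Aldh1l1 had 11 counts in ARPC4 ko, 81 in Nrf2-EGFP and 82 in wt, and passed as lower in ARPC4 ko. Of 18 other iron and heme genes, Cpox, a coproporphyrinogen oxidase of heme synthesis, had 69.8 CPM in ARPC4 ko, 104 CPM in Nrf2-EGFP and 152 CPM in wt and was 2.18-fold lower (2.05 to 2.31) in ARPC4 ko. Of 5 other efflux transporters, Abcc3 passed in Nrf2-EGFP, with 15.4 CPM in ARPC4 ko, 20.8 CPM in Nrf2-EGFP and 8.98 CPM in wt, 2.32-fold higher (1.97 to 2.74) than in wt, the same direction as Abcc1 and Abcc4. None of 21 NRF2 regulators and partners passed in either comparison with wt. At 1.5-fold, 2 were higher (Nfe2l3 and Maff) and 2 lower (Sqstm1 and Fyn) in ARPC4 ko than in wt (10.8% and 6.24% of all genes). In Nrf2-EGFP, 3 were higher (Nfe2l3, Maff and Bach2) and 2 lower (Sqstm1 and Fyn) than in wt (8.61% and 5.72% of all genes). Their log2 folds against wt ran from -0.91 to 0.88 in ARPC4 ko and from -0.75 to 0.87 in Nrf2-EGFP. Keap1 had 62.2 CPM in ARPC4 ko, 66.9 CPM in Nrf2-EGFP and 60.5 CPM in wt. Bach1, a repressor that competes for the same elements, had 91.8 CPM in ARPC4 ko, 85.2 CPM in Nrf2-EGFP and 83.3 CPM in wt, and Sqstm1, which binds KEAP1, had 179 CPM in ARPC4 ko, 208 CPM in Nrf2-EGFP and 337 CPM in wt.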

How the data were processed

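Gene counts were deposited by the authors for 1 library of each genotype. Strand-specific mRNA libraries were read from 1 end over 65 bases, per the labels, and the submitters' processing notes name TopHat2 2.1.0, Bowtie 1.1, HTSeq and mm10. The sources used here do not say how strand was handled in counting or which gene models were used. Totals that name no gene (8.22% in ARPC4 ko, 8.48% in Nrf2-EGFP and 9.08% in wt) were left out. Counts were scaled by TMM (edgeR 4.0.16, R 4.3.3) to CPM, and a gene was compared where any library reached 1 CPM. Log2 folds used CPM + 0.5. Ratios of scaled counts have exact Clopper-Pearson 95% intervals and CPM have exact Poisson intervals, both for counting error only. With 1 library per genotype there is no test. Positions and exon lengths come from GENCODE M21 and promoters from RefSeq, both on GRCm38, the build mm10. The code was tested on simulated data. All members are named, and other genes of the pathway lists where they passed the 2-fold rule against wt. Keap1, Bach1 and Sqstm1, and the other regulators named at 1.5-fold, were chosen after their values were seen. The members and lists were chosen with earlier results of these data known. Protein sequences were not analysed here. Alternatives were another scaling (total counts, DESeq2 1.42.0), pseudocount, filter and fold rule.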

Additional observations from a re-analysis of the deposited data

How the results depend on the processing

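Each choice was changed one at a time. Total-count scaling gave 13 members with a log2 fold above 0 in ARPC4 ko against wt and 10 in ARPC4 ko against Nrf2-EGFP, with medians of -0.11 and -0.10 for these comparisons, where the median of all genes moved by 0.10 and 0.12. With a pseudocount of 2 CPM, Nrf2-EGFP had 0 members higher than wt and 1 past the rule in all. Requiring 10 CPM in 1 library removed Aldh3a1, Cbr3 and Blvrb, which left 0 members higher than wt in ARPC4 ko, 0 higher and 1 past the rule in Nrf2-EGFP, and 3 above 0 in ARPC4 ko against Nrf2-EGFP. At 1.5-fold, 2 members were higher and 4 lower in ARPC4 ko than in wt (6 in all, against 10.8% and 6.24% of all genes), 3 higher and 2 lower in Nrf2-EGFP than in wt (5 in all, against 8.61% and 5.72%), and 3 lower in ARPC4 ko than in Nrf2-EGFP (3 in all, against 3.38%). DESeq2 scaling and no filter on low counts changed none of the counts and medians of the members beyond these limits. No member past the rule changed direction under any of these settings in which it was compared. These settings could not have changed it, because such log2 folds were 1 or more in size and scaling moved the median of all genes by up to 0.12. No paired analysis was possible because there is 1 library per genotype. Without replicates, counting intervals are the only error given, and the spread between cultures is unknown.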
